A study of Mus musculus with 2 samples.

Results

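The enzyme genes of glycolysis, gluconeogenesis, the pentose phosphate pathway and the tricarboxylic acid (TCA) cycle were compared in small-intestinal crypts with and without deletion of Lpcat3 from the epithelium. A list of 40 enzyme genes was taken, and a gene was counted where a probe set of the array annotation carried its symbol and no other. This gave 36 measured genes, 20 of glycolysis and gluconeogenesis, 6 of the pentose phosphate pathway and 10 of the TCA cycle, out of 11496 genes measured on the array. All 36 had signals above the detection floor of 92.9 on both arrays. Gpi1, Eno1 and G6pdx were not named by a probe set in the annotation used and were not analysed here. Gapdh was left out of every count, because its probe sets were either shared with other gene symbols or control probe sets of the array.

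The knockout group was Lpcat3 F/F, Villin-CreERT2, in which tamoxifen activates a Cre recombinase driven by the villin promoter of the intestinal epithelium. The control group was Lpcat3 F/F without the Cre transgene. Tamoxifen was injected into mice of both genotypes, aged 8 to 10 weeks, at 1 mg per mouse on each of 5 days, and crypts followed 2 weeks after. RNA from 5 mice of a genotype was pooled and read on 1 Affymetrix array, which leaves no replicates and no way to test for an effect of genotype. Genotype, Cre transgene, RNA pool and array cannot be told apart in this design. Lpcat3, which encodes an acyltransferase that places polyunsaturated fatty acids into phospholipids, had a signal of 928 in knockout, against 4691 in the control pool, by its 1 probe set. All 10 epithelial markers examined, among them Epcam and Vil1, were above the floor on both arrays and within 1.5-fold between them. The probe-set error of a log2 ratio was estimated from genes read by several probe sets and had an SD of 0.28 (1.21-fold, 4582 genes). It does not include the spread between mice or between pools, nor any difference between the arrays that the probe sets of a gene share. The same value was used for dim and bright genes.

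Glycolysis splits glucose into pyruvate, which is reduced to lactate or enters mitochondria as acetyl-CoA. Gluconeogenesis runs the route backwards through a few enzymes of its own, and its genes are expressed in liver, kidney and small-intestinal epithelium. The pentose phosphate pathway branches off at glucose 6-phosphate and yields NADPH, used in lipid synthesis and redox defence, and ribose for nucleotides. The TCA cycle oxidises acetyl-CoA in the mitochondrial matrix and supplies citrate for fatty acid and sterol synthesis.

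By the sign of the log2 ratio of knockout over control, 13 of 15 glycolysis genes, 5 of 6 pentose phosphate genes and 8 of 10 TCA cycle genes were higher, and all 5 gluconeogenesis genes were lower. Counted with glycolysis were 4 genes that take pyruvate to lactate or acetyl-CoA, among them both lower ones, Ldhb and Pdha1. Counted with the TCA cycle were the cytosolic enzymes Idh1 and Mdh1. By the probe-set error, 7 glycolysis genes were higher and 2 lower beyond it, 3 gluconeogenesis genes were lower, and 1 pentose phosphate and 1 TCA cycle gene were higher. Of the 36 genes, 26 had a log2 ratio above 0, beside 44.9% of all genes measured. Bright genes stood higher in general, and among the 4151 genes with a signal of at least 1000 on both arrays 53.3% had a ratio above 0, as did 21 of the 27 enzyme genes of that brightness. Ratios beyond the probe-set error were seen for 9 enzyme genes in the higher direction (16.7% of all genes) and for 5 in the lower direction (25.3% of all genes). This leaves 22 of 36 within it, beside 6667 of the 11496 genes measured. Among bright genes these were 6 higher of 27, beside 15.9% of all bright genes, and 2 lower, beside 13.6%. At least 1.5-fold higher were Aldoc, Pgd, Aldoa and Pfkp (4 of 36, beside 4.76% of all genes), and lower by that much were Fbp1, Pck1 and G6pc (3 of 36, beside 8.74%). Of the 27 bright enzyme genes 3 passed 1.5-fold upwards (3.47% of all bright genes) and 1 downwards (2.84%). After quantile normalisation the split was 2 higher and 3 lower, since Aldoa and Pfkp then lay just inside 1.5-fold. With the threshold at a log2 ratio of 0.58, Pfkp (0.63) was the nearest gene past it and Idh1 (0.57) the nearest short of it. The median log2 ratio was 0.14 over the 36 genes and -0.042 over all genes measured.

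**Figure D1:**
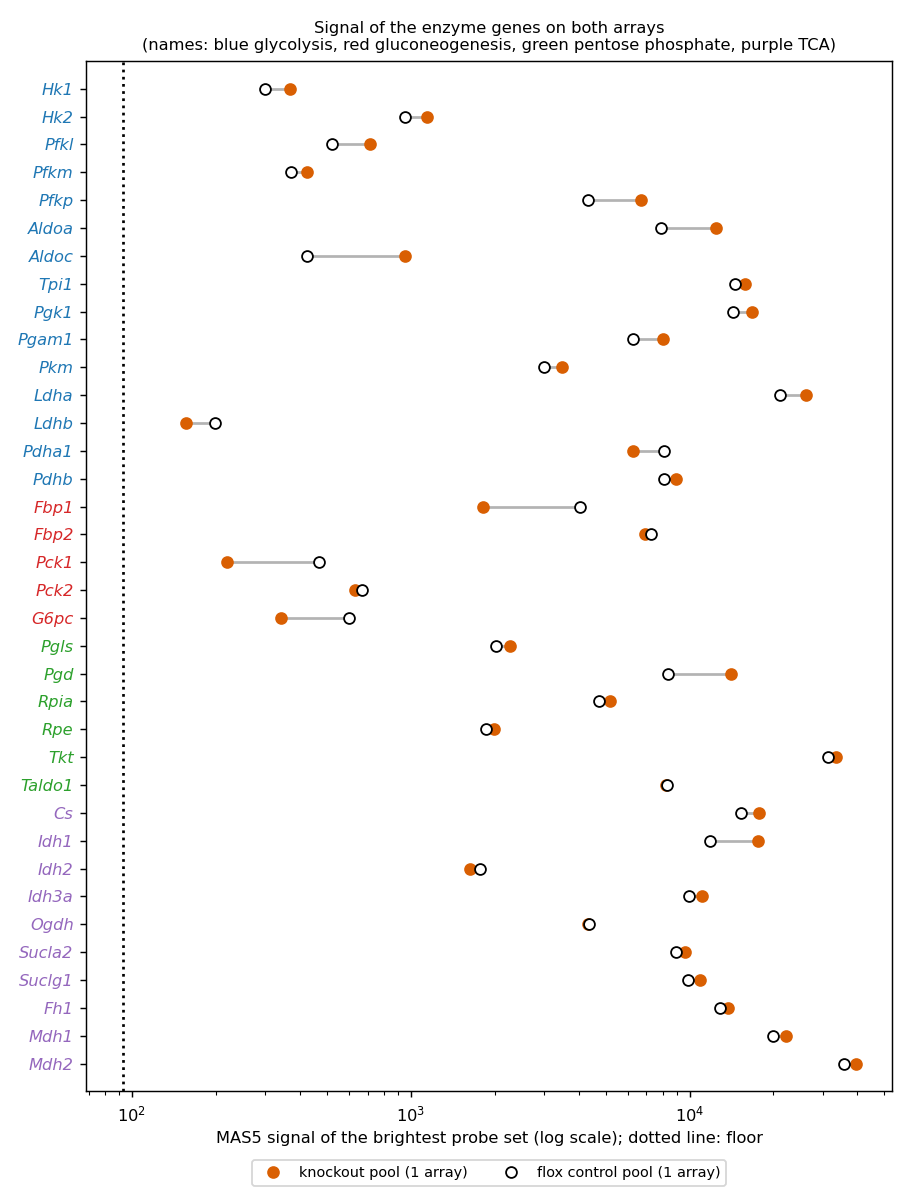
MAS5 signal on a log axis for the brightest probe set of each of the 36 enzyme genes, filled points for the knockout pool and open points for the flox control pool, 1 array each. The widest gaps are those of Aldoc (951 in knockout, 423 in control) and Fbp1 (1814 in knockout, 4061 in control), which point in opposite directions.

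The promoter windows of 4 genes are shown because these genes stood at the 2 ends of the range: Aldoc and Pgd had the highest ratios, and Fbp1 and G6pc are among the 3 lowest. Each window runs from 250 bases before to 50 bases after the transcription start in RefSeq (GRCm38.p6), read 5′ to 3′ on the gene's strand, and capitals mark the motif matches described further on.
Aldoc, chr11:78322823-78323122, plus strand: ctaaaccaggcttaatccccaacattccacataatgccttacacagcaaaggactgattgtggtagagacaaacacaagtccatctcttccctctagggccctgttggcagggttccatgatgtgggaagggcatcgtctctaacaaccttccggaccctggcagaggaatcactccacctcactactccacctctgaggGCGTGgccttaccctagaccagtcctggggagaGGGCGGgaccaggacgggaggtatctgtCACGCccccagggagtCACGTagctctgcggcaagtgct
Pgd, chr4:149166656-149166955, minus strand: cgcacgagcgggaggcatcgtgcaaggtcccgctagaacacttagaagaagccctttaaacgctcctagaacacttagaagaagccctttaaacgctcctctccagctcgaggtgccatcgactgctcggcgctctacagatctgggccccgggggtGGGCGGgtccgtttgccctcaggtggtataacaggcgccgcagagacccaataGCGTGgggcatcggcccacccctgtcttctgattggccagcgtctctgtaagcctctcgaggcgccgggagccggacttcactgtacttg
Fbp1, chr13:62888233-62888532, minus strand: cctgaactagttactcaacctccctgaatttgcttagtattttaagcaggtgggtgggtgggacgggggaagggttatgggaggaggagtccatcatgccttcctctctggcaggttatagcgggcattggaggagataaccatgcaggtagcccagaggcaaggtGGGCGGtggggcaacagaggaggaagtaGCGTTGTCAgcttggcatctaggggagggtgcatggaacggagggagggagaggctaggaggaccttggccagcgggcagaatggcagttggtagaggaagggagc
G6pc, chr11:101367466-101367765, plus strand: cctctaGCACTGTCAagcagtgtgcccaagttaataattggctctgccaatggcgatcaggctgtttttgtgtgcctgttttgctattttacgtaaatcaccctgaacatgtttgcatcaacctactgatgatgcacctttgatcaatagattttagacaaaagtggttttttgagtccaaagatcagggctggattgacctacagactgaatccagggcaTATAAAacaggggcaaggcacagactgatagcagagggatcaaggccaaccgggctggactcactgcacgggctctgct

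Both hexokinase genes, whose products trap glucose in the cell as glucose 6-phosphate, stood slightly higher in the knockout pool. Hk1 had a signal of 368 in the knockout pool and 301 in the control pool (log2 ratio 0.29). Hk2, the inducible form, had 1144 in the knockout pool and 956 in the control pool (0.26). Both ratios were about the size of the probe-set error.

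The steps from fructose 6-phosphate to triose phosphates carried the highest ratios of glycolysis. All 5 measured genes of these steps were higher, 4 of them beyond the probe-set error, with a median log2 ratio of 0.63. Pfkp, the platelet-type subunit of phosphofructokinase, the committing enzyme of glycolysis, had a signal of 6682 in the knockout pool and 4308 in the control pool (log2 ratio 0.63), and its other probe sets gave 0.67 and 0.82. Pfkl, the liver-type subunit, had 714 in the knockout pool and 523 in the control pool (0.45, with 0.31 and 0.87 by its other probe sets). Pfkm, the muscle-type subunit, had 424 in the knockout pool and 374 in the control pool, a ratio of 0.18 that lay within the probe-set error. All 3 subunit genes thus stood on the same side, Pfkp by the widest margin and Pfkm by the narrowest.

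Aldolase cleaves fructose 1,6-bisphosphate into 2 triose phosphates, and both measured aldolase genes were higher in the knockout pool. Aldoa had a signal of 12415 in the knockout pool and 7899 in the control pool (log2 ratio 0.65), and its 4 other probe sets gave 0.30 to 0.65. All 5 are of the type whose identifier ends in _x_at, which can also bind transcripts of related genes. Aldoc, the aldolase best known from brain, had 951 in the knockout pool and 423 in the control pool (2.25-fold, log2 ratio 1.17). Only 0.844% of all genes measured had a higher ratio than Aldoc. Its other probe set was below the floor on both arrays, so the value rests on 1 probe set.

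From triose phosphate to pyruvate all 4 measured genes were higher, but only Pgam1 passed the probe-set error. Pgam1, phosphoglycerate mutase, had a signal of 8055 in the knockout pool and 6256 in the control pool (log2 ratio 0.36). Tpi1, triose phosphate isomerase, had 15851 in the knockout pool and 14596 in the control pool (0.12). Pgk1, phosphoglycerate kinase, which makes ATP in this stretch, had 16715 in the knockout pool and 14364 in the control pool (0.22). The probe sets of Pgk1 disagreed, with 0.25 for one and -0.36 for the dimmest. Pkm, the pyruvate kinase gene of most tissues other than liver, had 3498 in the knockout pool and 3014 in the control pool (0.22).

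The genes that take pyruvate onward went both ways. Ldha, lactate dehydrogenase A, had a signal of 26250 in the knockout pool and 21119 in the control pool (log2 ratio 0.31). Ldhb, lactate dehydrogenase B, was dim and stood lower, at 156 in the knockout pool and 199 in the control pool (-0.36), and its 3 other probe sets were below the floor. The 2 lactate dehydrogenase genes therefore pointed in opposite directions, each by little more than the probe-set error. Pdha1, a subunit of the pyruvate dehydrogenase complex, had 6289 in the knockout pool and 8124 in the control pool (-0.37), but its other probe set gave 0.065. Pdhb, another subunit of the same complex, had 8942 in the knockout pool and 8082 in the control pool (0.15), so that the complex showed no shared direction.

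The 5 genes specific to gluconeogenesis were all lower in the knockout pool, with a median log2 ratio of -0.82, and 3 of them passed 1.5-fold. With the floor at the 70th percentile Pck1 came inside 1.5-fold (-0.56), which left 2 past it and a median of -0.56. Fbp1, fructose 1,6-bisphosphatase of liver type, which undoes the phosphofructokinase step, had a signal of 1814 in the knockout pool and 4061 in the control pool (2.24-fold lower, log2 ratio -1.16). Pck1, the cytosolic phosphoenolpyruvate carboxykinase, had 219 in the knockout pool and 468 in the control pool (2.13-fold lower, -1.09). G6pc, the catalytic subunit of glucose 6-phosphatase, which releases free glucose, had 343 in the knockout pool and 603 in the control pool (1.76-fold lower, -0.82). Among all genes measured, 1.30% had a lower ratio than Fbp1, 1.66% than Pck1 and 4.17% than G6pc. Each of these 3 values rests on 1 probe set above the floor.

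Fbp2 and Pck2, which encode the other isoform of 2 of these enzymes, did not share the size of the difference. Fbp2, the muscle-type bisphosphatase, had a signal of 6913 in the knockout pool and 7260 in the control pool (log2 ratio -0.071). Pck2, the mitochondrial carboxykinase, had 632 in the knockout pool and 672 in the control pool (-0.088, and -0.17 by its other probe set). Both lay within the probe-set error, so the differences past 1.5-fold were those of the liver-type bisphosphatase, the cytosolic carboxykinase and the glucose 6-phosphatase subunit. Slc37a4, which carries glucose 6-phosphate into the endoplasmic reticulum to that phosphatase, had 1538 in the knockout pool and 1880 in the control pool (-0.29).

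**Figure D2:**
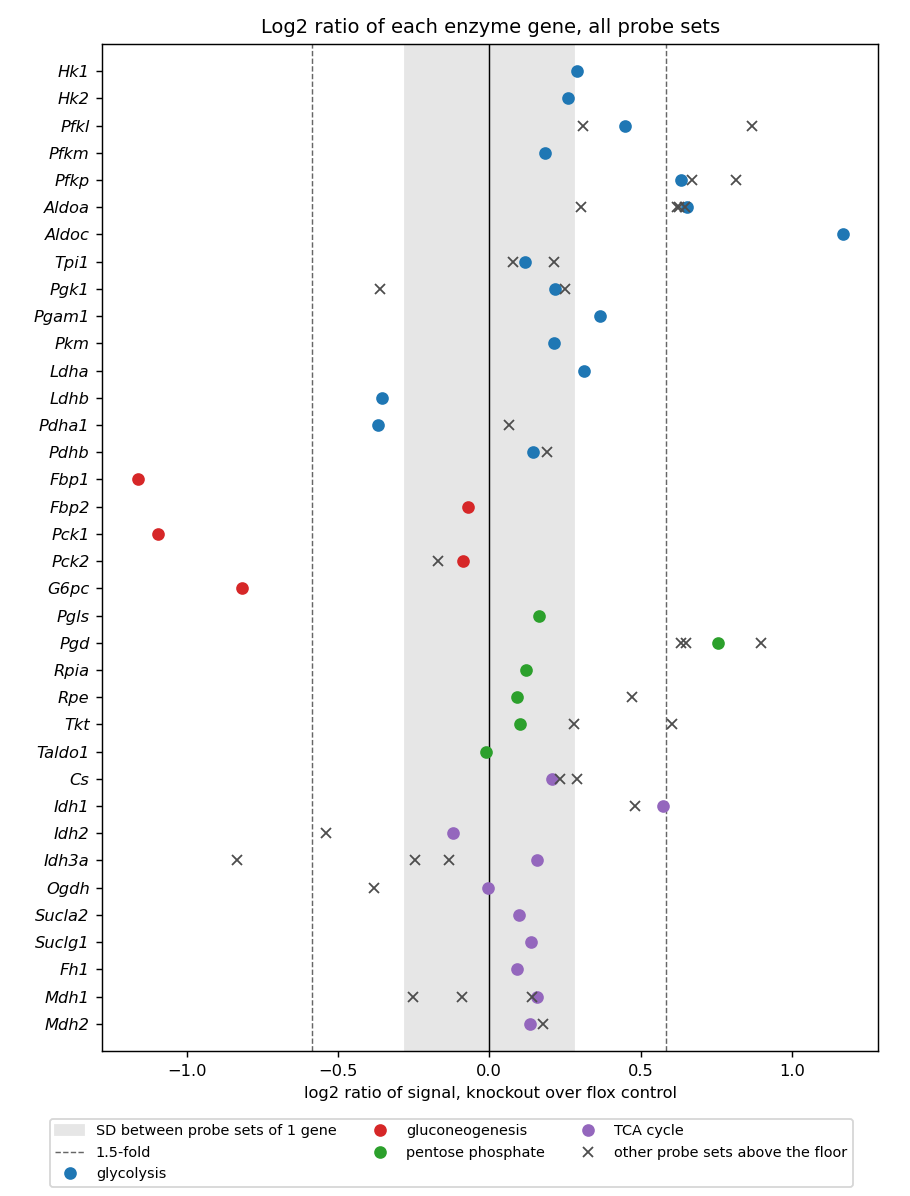
Log2 ratio of signal, knockout over flox control, for the 36 enzyme genes, with circles for the brightest probe set, crosses for other probe sets above the floor, a grey band for the probe-set error of 0.28 and dashed lines at 1.5-fold. Pfkp, Aldoa and Pgd lie past or near the right-hand line by most of their probe sets, and Fbp1, Pck1 and G6pc lie past the left-hand line.

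In the pentose phosphate pathway Pgd stood apart from the other 5 measured genes. Pgd encodes 6-phosphogluconate dehydrogenase, the second NADPH-forming enzyme of the oxidative branch. Its signal was 14133 in the knockout pool and 8361 in the control pool (1.69-fold, log2 ratio 0.76), and its 3 other probe sets gave 0.63 to 0.90. All but 1 of the Pgd probe sets, the brightest included, end in _x_at and can also bind transcripts of related genes. The probe set not of that type gave 0.65. Only 2.65% of all genes measured had a higher ratio than Pgd by its brightest probe set. Pgls, the lactonase between both dehydrogenases, had 2276 in the knockout pool and 2030 in the control pool (0.16), within the probe-set error.

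The 4 genes of the non-oxidative branch, which interconverts sugar phosphates and links the pathway back to glycolysis, all lay within the probe-set error, with log2 ratios from -0.010 to 0.12. Tkt, transketolase, was the brightest of them, with a signal of 33567 in the knockout pool and 31319 in the control pool (0.10), and its 2 dimmer probe sets gave 0.28 and 0.60. Taldo1, transaldolase, had 8233 in the knockout pool and 8291 in the control pool (-0.010). Rpia, ribose 5-phosphate isomerase, stood at 5164 in the knockout pool and 4749 in the control pool (0.12). Rpe, the epimerase of the same branch, had 1985 in the knockout pool and 1864 in the control pool (0.091), with 0.47 by its other probe set.

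Of the 10 TCA cycle genes, 9 lay within the probe-set error and none reached 1.5-fold, although Idh1 did (0.61) when the median of all genes was set to 0. Most genes lay within that error, 6667 of 11496 measured and 2927 of the 4151 with a signal of at least 1000 on both arrays. Idh1, the cytosolic NADPH-forming isocitrate dehydrogenase, had the highest ratio, with a signal of 17654 in the knockout pool and 11855 in the control pool (1.49-fold, log2 ratio 0.57), and 0.48 by its other probe set. Both of its probe sets have identifiers ending in _s_at, which can bind related transcripts. Idh2, the mitochondrial NADPH-forming enzyme, had 1635 in the knockout pool and 1779 in the control pool (-0.12, and -0.54 by its other probe set). The cytosolic and the mitochondrial enzyme thus stood on opposite sides of 0. Idh3a, a subunit of the NADH-forming enzyme of the cycle, had 11068 in the knockout pool and 9917 in the control pool (0.16), but its 3 dimmer probe sets were lower (-0.83 to -0.13).

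The remaining TCA cycle genes differed little between the pools. Cs, citrate synthase, which makes the citrate that can leave the mitochondrion for lipid synthesis, had a signal of 17721 in the knockout pool and 15348 in the control pool (log2 ratio 0.21), and its other probe sets gave 0.23 and 0.29. The 6 genes between 2-oxoglutarate and oxaloacetate had ratios from -0.0056 (Ogdh, 2-oxoglutarate dehydrogenase) to 0.16 (Mdh1, the cytosolic malate dehydrogenase). Other probe sets gave -0.38 for Ogdh and -0.25 to 0.14 for Mdh1. Mdh2, its mitochondrial counterpart, was the brightest enzyme gene, at 39475 in the knockout pool and 35948 in the control pool (0.14). Between them stood the succinyl-CoA ligase subunit genes Sucla2 (0.098) and Suclg1 (0.14) and Fh1, fumarase (0.092). Signals of Ldha, Tkt, Mdh1 and Mdh2 exceeded 20000 on at least 1 array, and whether differences are compressed at such brightness was not tested.

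The 3 pathways were set side by side. The median log2 ratio was 0.20 over the 20 genes of glycolysis and gluconeogenesis, 0.11 over the 6 pentose phosphate genes and 0.14 over the 10 TCA cycle genes. It was 0.020 over all genes of at least 1000 on both arrays and -0.042 over all genes measured. All pentose phosphate and TCA cycle genes were at least that bright. Hk1, Hk2, Pfkl, Pfkm, Aldoc, Ldhb, Pck1, Pck2 and G6pc were below 1000 on at least 1 array. The first group ran from -1.16 to 1.17, the pentose phosphate genes from -0.010 to 0.76 and the TCA cycle genes from -0.12 to 0.57. These ranges are of genes of unlike brightness, and the top of the first is Aldoc, one of the dimmer genes. The highest of the TCA cycle values was that of Idh1, the cytosolic enzyme. Without the 5 gluconeogenesis genes, 13 of 15 glycolysis genes were higher and 7 were higher beyond the probe-set error, with a median of 0.26. No test between the pathways was made, since each pool was read once.

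**Figure D3:**
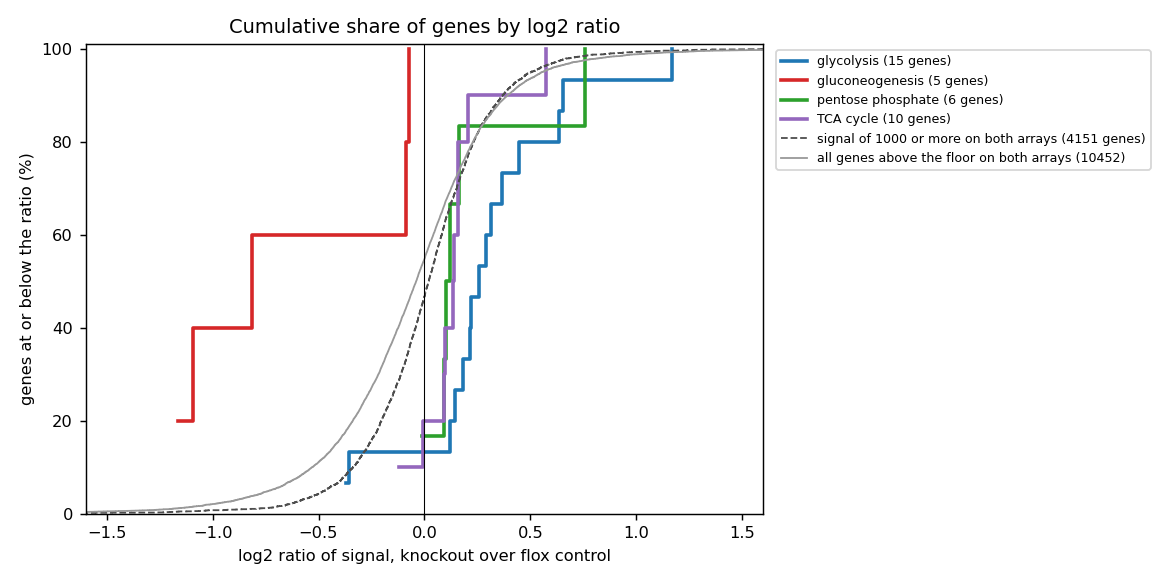
Cumulative share of genes, in percent, by log2 ratio of knockout over flox control, for 15 glycolysis, 5 gluconeogenesis, 6 pentose phosphate and 10 TCA cycle genes, beside all genes above the floor on both arrays (10452) and those of at least 1000 on both arrays (4151). The gluconeogenesis curve lies left of both grey curves and the glycolysis curve mostly right of them (medians -0.82 and 0.26).

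Other genes around these pathways were read from 5 further lists, whose counts stand beside the same shares of all genes measured (16.7% higher and 25.3% lower beyond the probe-set error, 4.76% higher and 8.74% lower by at least 1.5-fold). Of 12 measured enzymes of glycolysis, gluconeogenesis and neighbouring sugar metabolism, 9 were higher and 1 lower beyond the probe-set error, with a median log2 ratio of 0.31. Adpgk, an ADP-dependent glucokinase, was 2.58-fold higher (280 in the knockout pool, 109 in the control pool), but its other probe set gave -0.51. Hk3, a hexokinase known from blood cells, stood 1.56-fold lower (134 in knockout, 208 in control), and its other probe set gave 0.051. Neither gene was therefore clear of disagreement between its own probe sets. Pklr (0.57), Bpgm (0.32) and Gpd2 (0.30), also counted as higher, each had another probe set below 0 (-0.44, -0.065 and -0.19). All other probe sets of Gpd1 and Pgm1 were higher. The remaining genes counted as higher had no other probe set above the floor.

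Among 17 measured regulators of glycolysis and of pyruvate dehydrogenase, 2 passed 1.5-fold upwards (4.76% of all genes) and 3 downwards (8.74%), with a median log2 ratio of -0.27. Egln3, a prolyl hydroxylase that marks HIF-1α for degradation and is itself induced in low oxygen, had a signal of 1448 in the knockout pool and 666 in the control pool (1.12, and 0.71 by its other probe set). Hif1a, the oxygen-regulated factor that activates many glycolytic genes, had 4779 in the knockout pool and 3039 in the control pool (0.65), and 0.15 by its other probe set. Pdk2 (-0.93) and Pdk4 (-0.93), kinases that switch pyruvate dehydrogenase off, were lower, at 135 and 162 in the knockout pool, against 258 and 308 in the control pool. Pdk1, the brightest kinase gene of that family, stood higher, at 1479.7 in the knockout pool and 1176 in the control pool (0.33), with -0.25 to 0.32 by its other probe sets. Mlxip, a glucose-sensing transcription factor, was also lower (-0.67; 1045 in the knockout pool, 1666 in the control pool). Myc, a transcription factor that also drives glycolytic genes, stood at -0.29. Egln1 (-0.46, and -0.061 by its other probe set), Pfkfb3 (-0.45) and Vhl (-0.21) were below 0 as well. Over the whole list 6 genes were higher and 11 lower.

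Of 10 measured hexose and monocarboxylate transporters, 2 passed 1.5-fold upwards and 1 downwards, with a median log2 ratio of -0.082. Slc2a1, the basal glucose transporter GLUT1, had a signal of 1588 in the knockout pool and 955 in the control pool (log2 ratio 0.73), and its other probe sets gave 1.02 and 1.28. Slc2a4 was at least 1.68-fold higher and Slc2a3 at least 1.73-fold lower, since the control signal of Slc2a4 and the knockout signal of Slc2a3 lay below the floor. The intestinal sugar carriers Slc5a1 (-0.14) and Slc2a5 (-0.18) lay within the probe-set error, and Slc2a2, the basolateral glucose exporter, stood at -0.44 (3603 in the knockout pool, 4889 in the control pool).

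Of 11 measured genes of ribose and NADPH metabolism, 5 were higher and 6 lower, with a median log2 ratio of -0.061. At least 1.5-fold higher were 3 of them, and none was lower by as much. H6pd, which runs the oxidative steps inside the endoplasmic reticulum, had a signal of 516 in the knockout pool and 212 in the control pool (log2 ratio 1.28). Me1, cytosolic malic enzyme, had 1527 in the knockout pool and 801 in the control pool (0.93), but its other probe set gave 0.083. Shpk, sedoheptulokinase, had 230 in the knockout pool and 121 in the control pool (0.92). Prps2 was the lowest of this list (-0.51), with -0.88 and 0.11 by its other probe sets. Among 18 further genes of the TCA cycle, the pyruvate dehydrogenase complex and its side reactions, none reached 1.5-fold and the median was 0.14. The highest of these was Got1, cytosolic aspartate aminotransferase (0.56), and the lowest Glud1, glutamate dehydrogenase (-0.46).

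**Figure D4:**
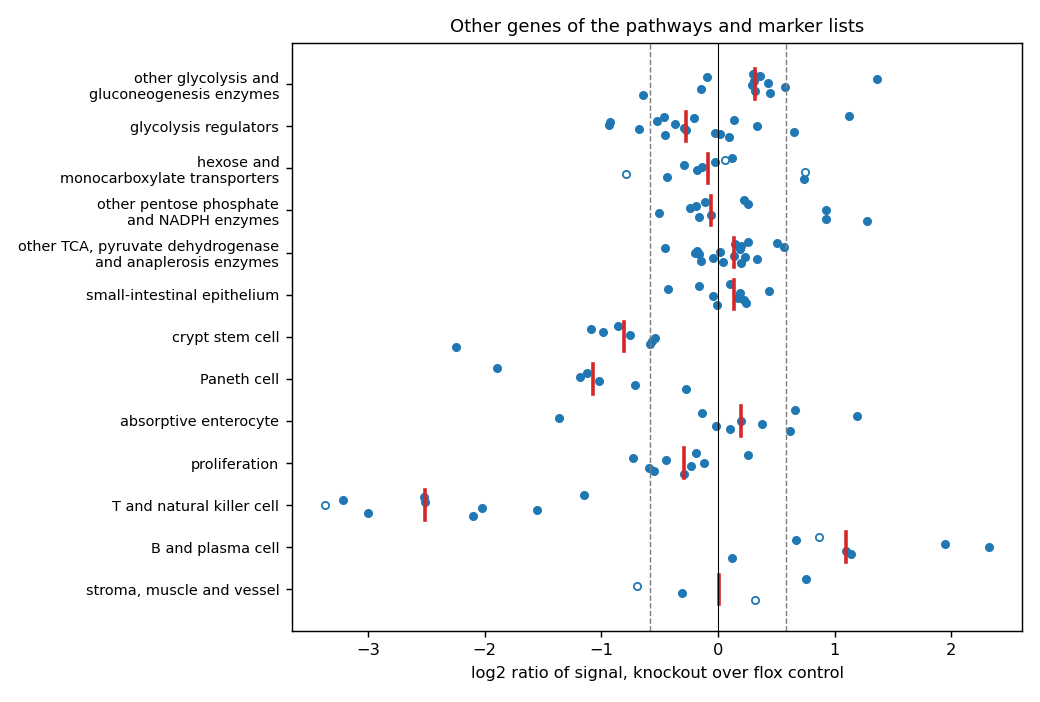
Log2 ratio of knockout over flox control for measured genes of 5 lists of other pathway genes and 8 marker lists, with open points for genes below the floor on 1 array, red bars for list medians and dashed lines at 1.5-fold. Crypt stem cell, Paneth cell and T and natural killer cell markers lie left of 0 (medians -0.81, -1.07 and -2.51), and B and plasma cell markers right of it (1.10).

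The cellular make-up of the pools differed by several marker lists, and in pooled tissue fewer cells of a type cannot be told apart from less RNA per cell. All 8 crypt stem cell markers were lower in the knockout pool (median log2 ratio -0.81; summed signal 33286 in the knockout pool and 55932 in the control pool), as were all 6 measured Paneth cell markers (-1.07; 70271 in the knockout pool and 114318 in the control pool). Of the Paneth cell markers only Lyz1 (-0.27) lay within the probe-set error, with -0.18 and -0.043 by its other probe sets. Absorptive enterocyte markers went both ways (9 measured, median 0.20; 255769 in the knockout pool and 216480 in the control pool), from Lct (-1.36) to Rbp2 (1.20). Of 9 measured proliferation genes 8 were lower (median -0.29; 37555 in the knockout pool and 45292 in the control pool). All 9 T and natural killer cell markers were lower by 1.5-fold or more (4303 in the knockout pool and 21741 in the control pool), and all 7 measured B and plasma cell markers were higher (5212 in the knockout pool and 1485 in the control pool). Stromal, muscle and vessel markers had summed signals of 743 in the knockout pool and 754 in the control pool over 4 of 8 genes, with Col1a1, Col3a1, Myh11 and Pecam1 below the floor on both arrays, and no blood marker was above it. The part of these shifts in the ratios of the enzyme genes was not tested.

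A promoter window was found in the RefSeq table for 35 of the 36 enzyme genes, and for 9322 of all genes measured. Where a gene had several windows, the most upstream one was used. The 5 gluconeogenesis genes had few CpG dinucleotides, with observed-to-expected ratios from 0.25 to 0.40 and a median of 0.29, against a median of 0.76 over all genes measured. Of all genes measured 16.4% had a ratio at or below the highest of these 5. Medians were 0.70 for the glycolysis genes without them, 0.87 for the pentose phosphate genes and 0.83 for the TCA cycle genes. Of the 30 other enzyme genes 4 lay below the highest gluconeogenesis gene, namely Hk1, Pfkm, Aldoa and Aldoc, but with the CpG-richest window of each gene in place of the most upstream one only Aldoc did. Aldoc and Fbp1, shown above at opposite ends of the signal differences, had similar CpG ratios of 0.34 and 0.29.

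**Figure D5:**
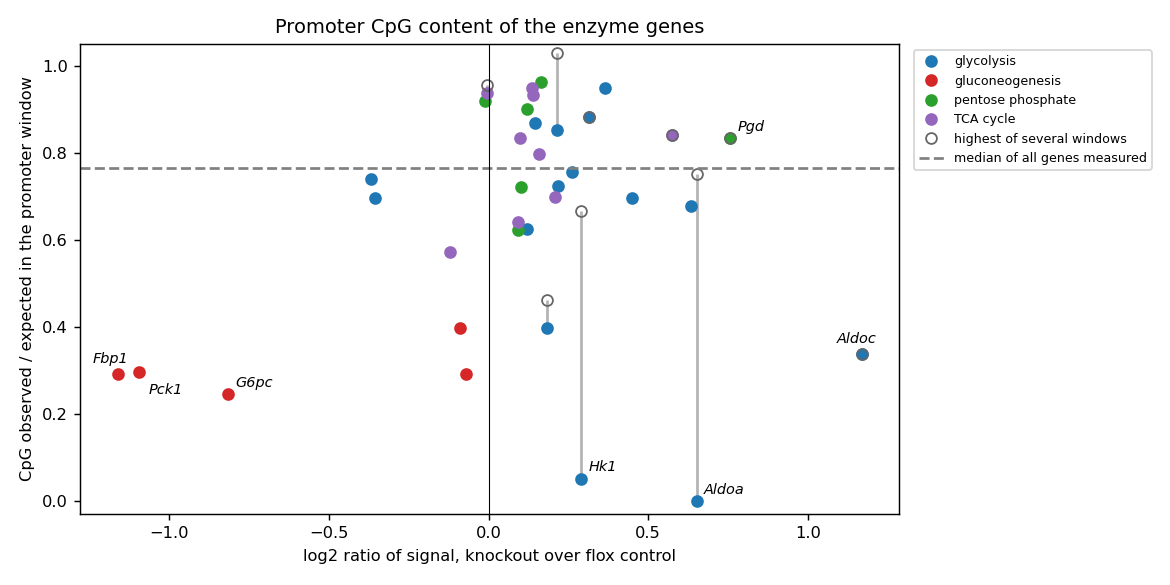
Observed-to-expected CpG ratio in the promoter window against the log2 ratio of knockout over flox control for 35 enzyme genes, with the most upstream window filled, the CpG-richest of several windows open, and the median of all genes measured (0.76) dashed. The 5 gluconeogenesis genes lie at or below 0.40, and so does Aldoc, which has the highest log2 ratio.

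Motifs were searched on both strands of these windows. The core bound by hypoxia-inducible factors, ACGTG or GCGTG, was found in 11 of 15 glycolysis genes (73.3%), in 5 of 6 pentose phosphate genes (83.3%), in 7 of 9 TCA cycle genes (77.8%), in 2 of 5 gluconeogenesis genes and in 62.9% of all genes measured. The E-box CACGTG, which contains that core, was found in 2 of the 15 and 1 of the 5 (10.3% of all genes). The antioxidant response core TGACNNNGC was found in 3 of the 5 gluconeogenesis genes, 2 of the 9 TCA cycle genes, 1 of the 15 glycolysis genes and none of the 6 pentose phosphate genes (14.8% of all genes). The cyclic AMP response element TNACGTCA was found in 5 of the 35 enzyme genes (14.3%), namely Pck1, Ldha, Pdhb, Ogdh and Mdh2 (5.06% of all genes). The TATA box TATAAA was found in G6pc and in no other enzyme gene (7.49% of all genes), and the GC box GGGCGG in 27 of 35 (63.9% of all genes).

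In the windows printed above, Aldoc holds 3 hypoxia-inducible factor cores and a GC box, and Pgd holds 1 of each. Fbp1 holds an antioxidant response core and a GC box, and G6pc an antioxidant response core far upstream and a TATA box 29 bases before the start. Such matches describe the letters of these windows and do not show binding.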

How the data were processed

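The values are linear signal intensities per probe set, deposited by the authors; per the submitters' processing notes they come from MAS5, for which no version or option is given in the sources used here. The submitters name the smaller A version of the mouse genome array, but the table and its annotation have the 45101 probe sets of the full one. Both columns had a mean of 500.00 after trimming 2% at each end and were used as deposited. Of the 45037 probe sets that are not controls, 34945 carried 1 symbol, 932 several and 9160 none; symbols were updated by Entrez identifier to the RefSeq table of GRCm38.p6 for 34741. Values below the floor, the 50th percentile of both arrays (92.9), were raised to it before log2 ratios (knockout over flox control) were taken, and the probe set with the highest mean log2 signal stands for a gene. A ratio is written as "at least" where 1 array was below the floor. With only 2 arrays, their number limits all precision.

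No test was possible with 1 array per genotype, so genes were counted past 1.5-fold and past the SD between probe sets. Functions were tested on simulated data. The members and lists were chosen with earlier results of these data known. The text may name every listed enzyme gene, Lpcat3 and the ends of the marker lists. Of the other pathway lists it may name genes past 1.5-fold or at either end of their list. Epcam, Vil1, Myc, Slc37a4, Pdk1, Slc2a2, Slc2a5 and Slc5a1 were named after their values were seen. So were Pklr, Bpgm, Gpd1, Gpd2, Pgm1, Egln1, Pfkfb3 and Vhl. Alternatives covered scaling, floor and choice of probe set. Python 3.11.15, pandas 2.3.3, numpy 2.4.6 and statsmodels 0.14.6 were used.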

Additional observations from a re-analysis of the deposited data

Results flagged for a closer look

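The array carries 3 control probe sets for Gapdh, the glycolytic enzyme that oxidises glyceraldehyde 3-phosphate, and these entered no count above. They were higher in the knockout pool, by log2 ratios of 0.36 (3′ set; signal 22069 in the knockout pool, 17164 in the control pool), 0.44 (5′ set; 29732 in the knockout pool, 21868 in the control pool) and 0.55 (middle set; 25844 in the knockout pool, 17697 in the control pool). They drew attention as a signal in control probe sets outside the main measurement. The control probe sets for Actb on the same arrays had ratios of 0.11 (3′ set), 0.39 (5′ set) and 0.37 (middle set). For both genes the 3′ set thus had the lowest ratio. Whether RNA quality differed between the 2 pools was not tested.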

How the results depend on the processing

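No paired analysis was possible because each genotype is 1 array, and no array could be left out for the same reason. Under 8 alternative settings for scaling, floor and probe sets, 31 of the 36 enzyme genes kept the sign of their log2 ratio. The others were Sucla2 (lower after quantile normalisation), Ogdh and Taldo1 (higher when the median of all genes is set to 0), Idh3a (-0.19 as the median of its probe sets) and Mdh1 (-0.091 without _s_at and _x_at probe sets). Of 285 recomputed values 283 moved by less than the probe-set error, the exceptions being Idh3a and Pck1 (-0.56 with the floor at the 70th percentile, above its knockout signal, which ends its 1.5-fold call and leaves 2 lower genes). Much of this count was fixed beforehand, so it is no measure of how stable the values are. The lower floor could move no enzyme gene, since all 36 lay above the main floor on both arrays. The median of probe sets could not move the 18 genes with 1 probe set above the floor. Setting the median of all genes to 0 took the same -0.039 from every gene, which is less than the probe-set error. The higher floor changed the values of Hk1 and Pck1 only. Leaving out _s_at and _x_at probe sets changed those of Pgk1, Pgd, Tkt and Mdh1 only. Aldoa, Idh1 and Ldhb had values under only 7 of the settings. Aldoc and Pgd stayed at least 1.5-fold higher, and Fbp1 and G6pc at least 1.5-fold lower, under all 8. The number of enzyme genes at least 1.5-fold higher, 4 as reported, was 2 after quantile normalisation, 3 after lowess (without Pfkp) and without _s_at and _x_at probe sets (without Aldoa), and 5 with the median of all genes set to 0 (with Idh1). The pathway medians stayed between 0.16 and 0.26 for glycolysis with gluconeogenesis, 0.076 and 0.22 for the pentose phosphate pathway and 0.067 and 0.18 for the TCA cycle, counting 3 alternatives added after seeing the data: leaving out gluconeogenesis genes, reading Gapdh by its control probe sets, and leaving out genes above 20000. Over the whole array 1234 genes passed 1.5-fold upwards and 1889 downwards with the floor at the 30th percentile, while 308 and 432 did so at the 70th.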
